A study of Homo sapiens with 20 samples.

Results

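FBXW7 and 7 other genes of the SCF ubiquitin ligase system, SKP2, BTRC, FBXW11, CUL1, SKP1, RBX1 and USP28, were examined for H3K27ac, the acetylated form of lysine 27 of histone H3 that active promoters and enhancers carry. A peak or super-enhancer (SE) was assigned to a gene when it overlapped the GENCODE gene body or the 10 kb on either side of it by at least 1 bp (hg38). The 8 genes are 8 of 20007 protein-coding genes, and their windows held 144 of the 271550 peaks of all libraries. When the peaks of all libraries were merged wherever they overlapped, these became 28 of 58860 regions.

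The cells were HCT-116, derived from a human colorectal carcinoma. Cells with intact FBXW7 (WT) and FBXW7 -/- cells (KO) came from a commercial supplier, and the sources used here do not say whether the KO line is a single clone. Every culture was transfected for 48 h with esiRNA, an enzymatically prepared pool of small interfering RNAs, directed either at a control target (esiCT) or at the histone deacetylase HDAC4 (esiHDAC4). For the last 24 h the cells received 50 µM oxaliplatin (OXPT), a platinum drug that cross-links DNA, or no drug (UNT). The 8 combinations had 2 libraries each, replicates A and B. The labels state that 3 experiments were pooled, and the study's methods describe 2 biological replicates of each sample, so what separates A from B is not settled here. The p-values measure the spread between these libraries, which may be partly technical.

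SCF ligases attach ubiquitin to proteins and so send them to the proteasome. CUL1 is the scaffold, SKP1 is the adaptor that holds an F-box protein, and RBX1 is the RING subunit that recruits the ubiquitin-conjugating enzyme. The F-box protein chooses the substrate: FBXW7 binds phosphorylated degrons in cyclin E, JUN, MYC and NOTCH and is a tumour suppressor in the colon, SKP2 binds the cell cycle inhibitor p27, and BTRC and FBXW11 (both known as β-TrCP) bind β-catenin and IκB. USP28 is a deubiquitinase that removes ubiquitin from substrates of FBXW7.

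The libraries held between 1752 peaks (KO esiHDAC4 UNT replicate B) and 27927 peaks (WT esiCT UNT replicate A). Read totals were not used here. The fold and p-value of each peak were solved for the reads behind it, and the lowest background found, an index of depth, was 1.02 to 3.07 reads, at its smallest in the library with the fewest peaks. The 4 KO replicate B libraries had the fewest peaks, 1752 to 8216, and the lowest backgrounds, 1.02 to 1.51 reads. KO esiCT UNT replicate A had nearly the same background, 1.52 reads, but held 12639 peaks. The lowest fold called at background was 3.49 to 3.96 in the 4 KO replicate B libraries and 2.88 to 3.57 in the other 12. SKP1, BTRC and RBX1 were each called in at least 1 of the 4. Of 8 markers of colon epithelium, KRT18 had a start site peak in 16 libraries, EPCAM and KRT8 in 15, CDX2 and ELF3 in 10, CDH1 in 8 and VIL1 in 1, whereas LGR5 had none. Of 6 markers of other cell types, COL1A1 had a start site peak in 3 libraries and PTPRC, CD3E, PECAM1, ALB and GFAP had none. Within the whole gene window, the measure used for the 8 genes, COL1A1 had a peak in 12 libraries, PECAM1 in 11, GFAP in 8 and PTPRC in 2.

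Most of the H3K27ac of these genes lay at CpG-rich start sites. For 7 of the 8 genes RefSeq gives promoter sequences (GRCh38.p14, from 250 bases before to 50 bases after a start), 14 in all. BTRC was read from the hg38 genome over the equivalent bases. The 3 FBXW7 sequences are shown because each lies in or beside one of its peak regions and they differ in base composition, and those of SKP2, BTRC and RBX1 because the oxaliplatin comparison turns on their peaks. Capitals mark, on either strand, matches to the GC box GGGCGG, the CCAAT box, the TATA box written as TATAAA, the AP-1 motif written as TGANTCA, the E-box written as CACGTG, or the ETS motif written as CCGGAAG. None of these letters contains another of them.
FBXW7 first start, chr4:152536043-152536342, minus strand: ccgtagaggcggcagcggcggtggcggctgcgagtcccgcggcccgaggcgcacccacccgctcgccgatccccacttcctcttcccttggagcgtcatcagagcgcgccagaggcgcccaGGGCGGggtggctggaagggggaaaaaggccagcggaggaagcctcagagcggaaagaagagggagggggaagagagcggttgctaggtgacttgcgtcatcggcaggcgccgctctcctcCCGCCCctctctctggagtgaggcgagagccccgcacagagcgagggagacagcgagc
FBXW7 second start, chr4:152535192-152535491, minus strand: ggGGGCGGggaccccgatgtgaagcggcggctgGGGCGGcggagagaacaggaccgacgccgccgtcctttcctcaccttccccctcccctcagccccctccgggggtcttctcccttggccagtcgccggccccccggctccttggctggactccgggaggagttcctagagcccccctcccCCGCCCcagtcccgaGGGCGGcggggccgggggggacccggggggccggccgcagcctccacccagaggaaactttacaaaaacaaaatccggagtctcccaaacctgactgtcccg
FBXW7 internal start, chr4:152352777-152353076, minus strand: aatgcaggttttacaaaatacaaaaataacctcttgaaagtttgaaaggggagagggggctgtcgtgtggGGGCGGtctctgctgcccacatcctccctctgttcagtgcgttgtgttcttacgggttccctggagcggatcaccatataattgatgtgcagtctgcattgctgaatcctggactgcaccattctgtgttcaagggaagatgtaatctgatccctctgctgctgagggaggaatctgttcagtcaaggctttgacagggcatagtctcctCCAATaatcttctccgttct
SKP2, chr5:36151861-36152160, plus strand: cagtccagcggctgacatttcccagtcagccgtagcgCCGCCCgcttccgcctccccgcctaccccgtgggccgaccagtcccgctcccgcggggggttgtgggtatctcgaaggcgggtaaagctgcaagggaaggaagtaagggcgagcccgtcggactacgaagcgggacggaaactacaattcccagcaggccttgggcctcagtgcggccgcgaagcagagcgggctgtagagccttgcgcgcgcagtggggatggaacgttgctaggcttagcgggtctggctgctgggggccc
BTRC, chr10:101353915-101354214, plus strand: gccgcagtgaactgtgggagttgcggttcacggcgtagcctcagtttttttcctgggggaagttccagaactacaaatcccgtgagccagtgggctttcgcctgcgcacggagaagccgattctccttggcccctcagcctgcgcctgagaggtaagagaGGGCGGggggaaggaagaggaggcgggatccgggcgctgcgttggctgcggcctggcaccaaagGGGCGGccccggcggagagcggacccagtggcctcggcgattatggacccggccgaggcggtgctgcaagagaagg
RBX1, chr22:40951128-40951427, plus strand: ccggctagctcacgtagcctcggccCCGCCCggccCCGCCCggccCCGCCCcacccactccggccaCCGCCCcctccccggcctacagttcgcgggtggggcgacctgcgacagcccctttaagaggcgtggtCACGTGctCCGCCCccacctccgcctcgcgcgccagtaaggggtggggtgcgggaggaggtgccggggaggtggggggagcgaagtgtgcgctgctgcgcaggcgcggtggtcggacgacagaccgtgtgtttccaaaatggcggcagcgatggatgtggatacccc

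The first and second FBXW7 starts held 30 and 25 CpG dinucleotides and had a GC content of 70% and 72%. The internal start held 6 CpG and had a GC content of 48.7%, against medians of 14 CpG and 58.7% over 35116 RefSeq promoters. SKP2 held 29, BTRC 25 and RBX1 34 CpG. The GC box occurred 2, 4 and 1 times at the 3 FBXW7 starts, 5 times at RBX1, 5 times at USP28, 2 times each at FBXW11, SKP1 and BTRC and 1 time at SKP2. Over all promoters 45% held at least 1. CCAAT, which 34.6% of promoters hold, occurred at the internal FBXW7 start and in 2 of the 5 CUL1 promoters. CACGTG (7.26% of promoters) occurred at RBX1 and USP28, and CCGGAAG (10.3%) and TATAAA (11.5%) occurred once each at SKP1. TATAAA also occurred at the other RefSeq start of FBXW7, which had no peak. TGANTCA (7.71% of promoters) occurred in none of the member promoters. These are matches of letters and say nothing of binding.

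All 8 genes had a peak in at least 1 library, and none had a peak in all 16. Of the 20007 genes 15817 had a peak in at least 1 library and 484 in all 16. BTRC and SKP1 were called in 13 libraries, FBXW11, CUL1 and RBX1 in 12, FBXW7 in 10, USP28 in 8 and SKP2 in 5. The fold of their peaks over local background was 2.56 to 7.42 with a median of 3.99, within the range of the library medians over all peaks, 3.68 to 4.84. The summits rested on 9 to 38 reads with a median of 17. The strongest peak, at RBX1 in WT esiCT UNT replicate A, had a fold of 7.42 from 29 reads, with an exact Poisson 95% interval of 5.05 to 10.6 that covers counting error only. Of the 144 peaks, 8 reached a −log10 q of 10, and these lay at BTRC, RBX1, FBXW11 and CUL1. No SE of any library overlapped a window, out of 8295 SEs, whereas 1617 of the 20007 genes overlapped an SE in at least 1 library. The nearest one lay 120.6 kb from BTRC in WT esiHDAC4 OXPT replicate B, and the nearest to FBXW7 lay 994.3 kb away.

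**Figure D1:**
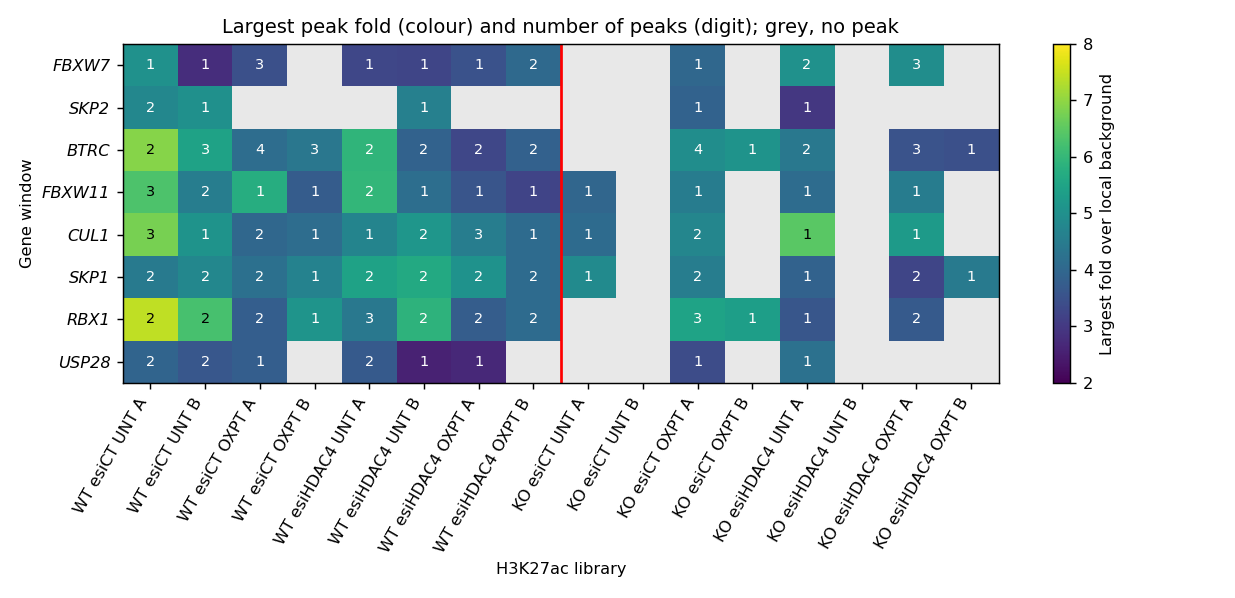
Largest fold over local background (colour) and number of peaks (digit) in the window of each gene (rows) for the 16 H3K27ac libraries (columns), with WT left and KO right of the red line and grey for no peak. WT libraries held 5 to 8 called genes, replicate B of KO esiCT UNT and of KO esiHDAC4 UNT held none, and the highest fold is 7.42 at RBX1.

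FBXW7, the gene inactivated in the KO line, was called in 7 WT and 3 KO libraries. The study describes a deletion within the gene, whose position is not used here, and peaks at the start sites do not test it. In WT the largest fold was 5.04 and 2.79 in esiCT UNT replicates A and B, 3.47 in esiCT OXPT replicate A, 3.27 and 3.25 in esiHDAC4 UNT, and 3.52 and 4.06 in esiHDAC4 OXPT. In KO it was 3.99 in esiCT OXPT, 5.03 in esiHDAC4 UNT and 4.94 in esiHDAC4 OXPT, all replicate A. The KO values lay within the WT range, and every KO replicate B library was without a peak. OXPT and UNT each had 5 libraries called, esiHDAC4 6 and esiCT 4.

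The 16 FBXW7 peaks fell into 4 regions. The region upstream of the first start (chr4:152536331-152537591, median summit at −560 bp) was called in 7 libraries, 4 WT and 3 KO. Starts of the divergent noncoding gene MIR4453HG and of MIR4453 on the other strand lie within 1 kb of this region and of the next one. The region just inside the gene (chr4:152534985-152535977, median summit 414 bp downstream) covers the second start and was called in 4 libraries, all replicate A. The third region (chr4:152351806-152353096) covers the internal start of the transcript FBXW7-203, 183783 bp into the gene. It was called in 3 esiHDAC4 libraries, all replicate A, with folds of 3.27, 3.52 and 4.94, and in none of the 8 esiCT libraries. This difference did not pass the test over all merged regions (exact permutation test within replicate letters, two-sided, p = 0.143, Benjamini-Hochberg adjusted p = 1). In the same comparison 44 of 20090 regions, 0.219%, had an unadjusted p under 0.05, and 0% passed after adjustment. The fourth was an intronic peak with a fold of 3.29 in WT esiCT OXPT replicate A alone.

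**Figure D2:**
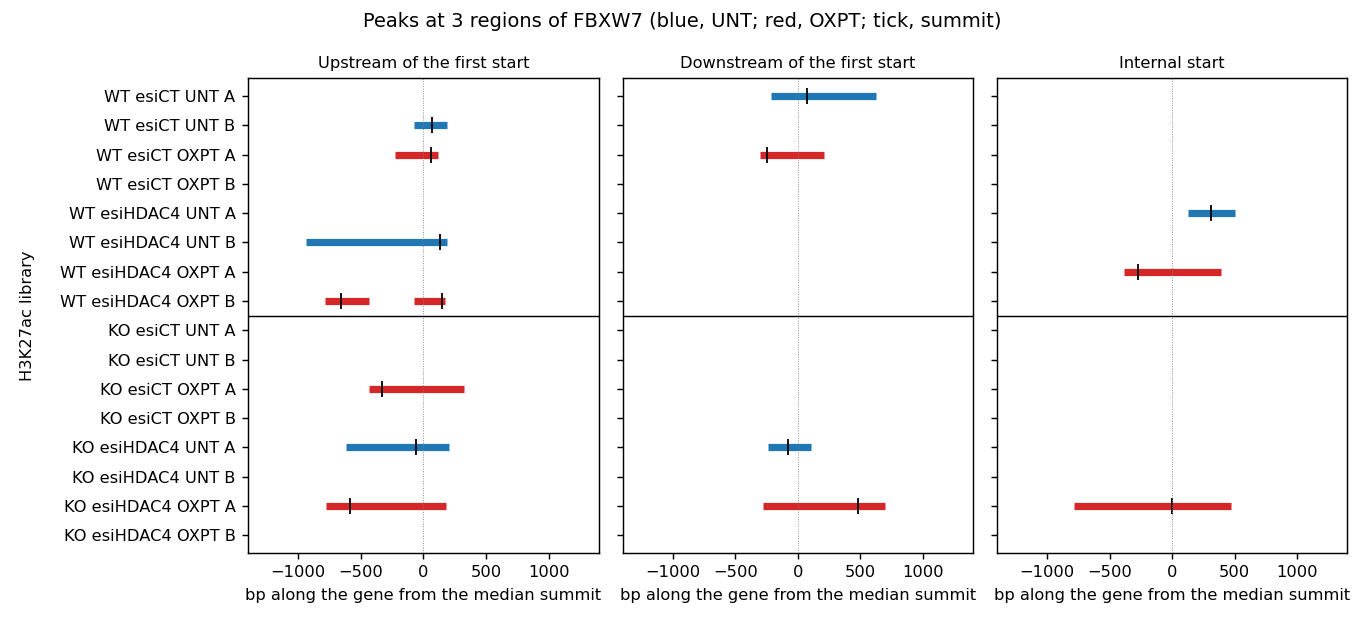
Peaks (bars) and summits (ticks) of the 16 libraries at the region upstream of the first FBXW7 start, the region downstream of it and the internal start, as bp along the gene from the region's median summit, UNT in blue and OXPT in red. The internal start has bars in 3 esiHDAC4 replicate A libraries only.

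SKP2 had the fewest calls, 3 in WT and 2 in KO. The fold was 4.79 and 5.01 in WT esiCT UNT replicates A and B, 4.62 in WT esiHDAC4 UNT replicate B, 3.89 in KO esiCT OXPT replicate A and 2.97 in KO esiHDAC4 UNT replicate A. UNT libraries made up 4 of these 5, and none of the 4 WT OXPT libraries had a peak. The difference between OXPT and UNT did not pass the exact permutation test (p = 0.296, adjusted p = 1). All SKP2 peaks lay within 1 kb of its start sites, a stretch shared with the divergent gene LMBRD2, so the mark cannot be assigned to either gene alone.

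BTRC was called in all 8 WT libraries and in 5 KO libraries, and had the most peaks of the 8 genes, 31. Its largest fold in WT was 6.92 and 5.45 in esiCT UNT, 5.92 and 3.89 in esiHDAC4 UNT, 4.15 and 4.37 in esiCT OXPT, and 3.28 and 3.86 in esiHDAC4 OXPT, for replicates A and B. In KO it was 4.94 and 5.09 in esiCT OXPT replicates A and B, 4.39 in esiHDAC4 UNT replicate A, and 3.53 and 3.46 in esiHDAC4 OXPT replicates A and B. All 8 OXPT libraries and 5 of 8 UNT libraries had a peak (exact permutation test, p = 0.214, adjusted p = 1). The 3 without were both KO esiCT UNT libraries and KO esiHDAC4 UNT replicate B.

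By position, the BTRC peaks fell into 7 regions, 3 of which were called in more than 1 library. The start site region (chr10:101354136-101355554) was called in 5 UNT and 3 OXPT libraries, and in WT alone in 4 of 4 UNT and 1 of 4 OXPT libraries. An intronic region 13812 bp into the gene (chr10:101367218-101368786) was called in 4 UNT and 6 OXPT libraries. A region past the end of the gene (chr10:101557598-101559192, median summit 967 bp beyond the last annotated base) was called in 0 of 8 UNT and 6 of 8 OXPT libraries. No start site of another GENCODE gene lies within 1 kb of this region.

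The 6 libraries with the downstream BTRC region were 3 WT and 3 KO, 3 esiCT and 3 esiHDAC4, 3 replicate A and 3 replicate B. Its folds were 3.79 in WT esiCT OXPT replicate A, 4.37 in WT esiCT OXPT replicate B and 2.59 in WT esiHDAC4 OXPT replicate B. In KO they were 3.45 in esiCT OXPT replicate A and 3.53 and 3.46 in esiHDAC4 OXPT replicates A and B. KO esiHDAC4 OXPT replicate B, which had the region, held 6084 peaks, and the UNT libraries, which had not, held 1752 to 27927. Whether library size bears on the region was not tested. The difference had p = 0.0102 and did not pass adjustment over all regions (exact permutation test within letters, adjusted p = 1). Of the 20090 regions tested 426, 2.12%, had an unadjusted p under 0.05 for OXPT against UNT, 287 of them called more often with OXPT, and 0% passed after adjustment. Without replicate A, and likewise without replicate B, the exact p was 0.143. With 1 letter left, the 70 arrangements allow no p under 0.0286, so this cannot decide whether the difference holds.

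The 300 bases around the median summit of the downstream BTRC region (hg38, plus strand) are shown because it lies away from any start site and was called in OXPT libraries alone.
BTRC downstream, chr10:101558138-101558437: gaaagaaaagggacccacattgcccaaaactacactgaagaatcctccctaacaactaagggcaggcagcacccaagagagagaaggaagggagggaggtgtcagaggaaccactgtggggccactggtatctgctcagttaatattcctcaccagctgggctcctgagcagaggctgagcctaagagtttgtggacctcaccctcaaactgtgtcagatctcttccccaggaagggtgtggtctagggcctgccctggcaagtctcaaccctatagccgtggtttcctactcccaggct
The sequence held 1 CpG at a GC content of 54.3% and none of the 6 motifs. Over the 300 bases around the summits of 58856 merged regions the medians were 5 CpG and 50%, and 18.7% held a GC box, 27.6% CCAAT and 16.5% TATAAA.

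**Figure D3:**
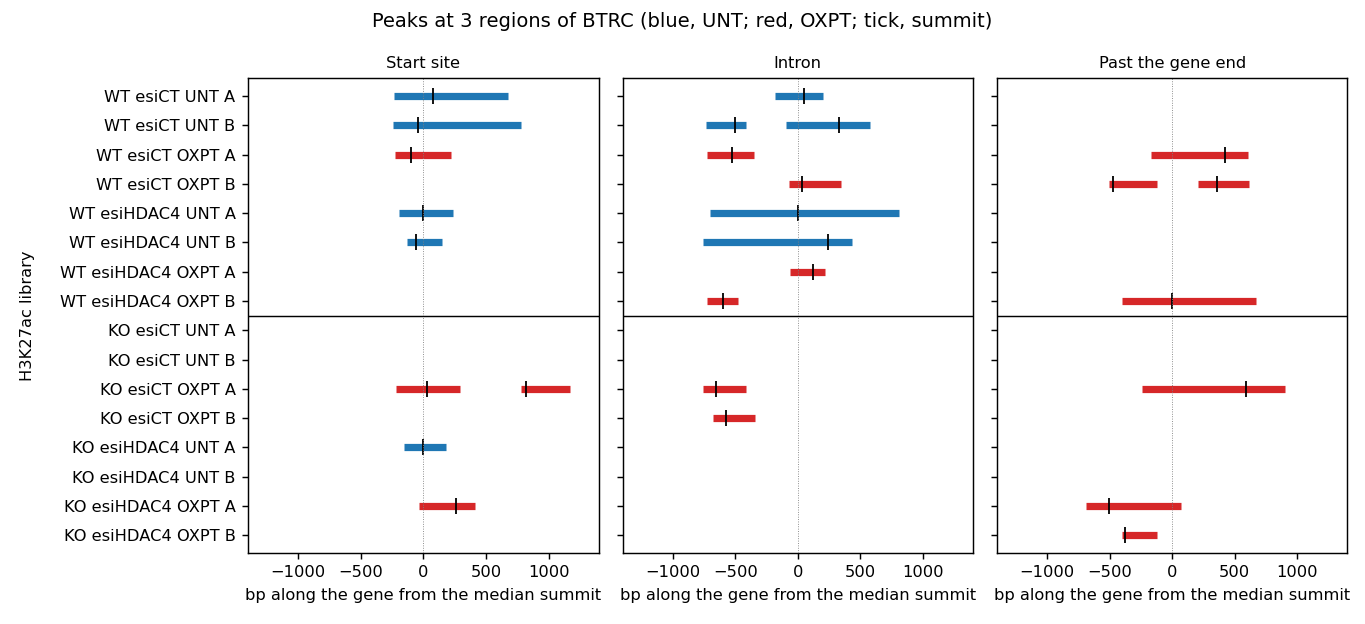
Peaks (bars) and summits (ticks) of the 16 libraries at the start site, intron and downstream regions of BTRC, as bp along the gene from the region's median summit, UNT in blue and OXPT in red. The downstream panel has bars in 6 OXPT libraries and in no UNT library.

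FBXW11, the second β-TrCP gene, was called in all 8 WT libraries and in 4 KO libraries, all replicate A. At its main start site region (chr5:172005575-172006890) the WT folds were 6.32 and 4.54 in esiCT UNT, 5.98 and 4.18 in esiHDAC4 UNT, 5.74 and 3.74 in esiCT OXPT, and 3.57 and 3.24 in esiHDAC4 OXPT, for replicates A and B. The KO replicate A folds were 3.98 in esiCT UNT, 4.52 in esiCT OXPT, 4.12 in esiHDAC4 UNT and 4.53 in esiHDAC4 OXPT. These lay within the WT range. WT windows held 1.5 ± 0.756 peaks and KO windows 0.5 ± 0.535 (mean ± SD, n = 8), a difference with the smallest p of the 8 genes in this comparison (exact permutation test, p = 0.00612, adjusted p = 0.0952).

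CUL1, the scaffold, had the same calls as FBXW11. The folds at its largest peak in WT were 6.76 and 5.07 in esiCT UNT, 4.70 and 5.16 in esiHDAC4 UNT, 3.99 and 4.15 in esiCT OXPT, and 4.55 and 4.11 in esiHDAC4 OXPT, for replicates A and B. In KO replicate A they were 4.09 in esiCT UNT, 4.75 in esiCT OXPT, 6.46 in esiHDAC4 UNT and 5.28 in esiHDAC4 OXPT. KO replicate A and WT overlapped. All 12 libraries were called at a single start site region of 2753 bp (chr7:148698009-148700761), and the 4 other regions were intronic peaks of 1 library each. WT windows held 1.75 ± 0.886 and KO windows 0.625 ± 0.744 peaks (n = 8, exact permutation test, p = 0.00857, adjusted p = 0.105).

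SKP1, the adaptor, was called in 8 WT and 5 KO libraries, always in 1 merged region at its start site (chr5:134175011-134178119). Its largest fold in WT was 4.09 to 5.64 with a median of 4.71, and in KO it was 4.86 in esiCT UNT replicate A, 4.53 in esiCT OXPT replicate A, 3.88 in esiHDAC4 UNT replicate A, and 3.26 and 4.46 in esiHDAC4 OXPT replicates A and B. Of the 5 KO values 2 lay below the lowest WT value. WT windows held 1.875 ± 0.354 and KO windows 0.875 ± 0.835 peaks (n = 8, exact permutation test, p = 0.0122, adjusted p = 0.117). The region also lies inside a longer protein-coding gene, ENSG00000272772, which GENCODE annotates on the same strand.

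RBX1, the RING subunit, was called in 8 WT and 4 KO libraries. Its largest fold in WT was 7.42 and 6.26 in esiCT UNT, 4.40 and 5.89 in esiHDAC4 UNT, 3.78 and 5.10 in esiCT OXPT, and 3.77 and 4.11 in esiHDAC4 OXPT, for replicates A and B. In KO it was 5.48 and 5.36 in esiCT OXPT replicates A and B, 3.60 in esiHDAC4 UNT replicate A and 3.69 in esiHDAC4 OXPT replicate A. Neither KO esiCT UNT library was called and both KO esiCT OXPT libraries were. The region upstream of the start (chr22:40950175-40951114), which carried the folds of 7.42 and 6.26, was called in 7 libraries of WT and 2 of KO (exact p = 0.0306, adjusted p = 0.258), and the region downstream of it (chr22:40951459-40953050) in 8 WT and 4 KO libraries (p = 0.0714, adjusted p = 0.378). WT windows held 2 ± 0.535 and KO windows 0.875 ± 1.13 peaks (n = 8, exact permutation test, p = 0.0294, adjusted p = 0.156).

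USP28, the deubiquitinase, was called in 6 WT and 2 KO libraries. In WT the largest fold was 3.93 and 3.63 in esiCT UNT and 3.69 and 2.56 in esiHDAC4 UNT, for replicates A and B. In WT OXPT it was 3.80 in esiCT and 2.70 in esiHDAC4, both replicate A, with no peak in replicate B. The KO folds were 3.38 in esiCT OXPT and 4.23 in esiHDAC4 UNT, both replicate A. The peaks lay at 2 start site regions, chr11:113875843-113876692 in 6 libraries and chr11:113874611-113875487 in 5. WT windows held 1.125 ± 0.835 and KO windows 0.25 ± 0.463 peaks (n = 8, exact permutation test, p = 0.0367, adjusted p = 0.172).

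KO against WT asked whether the mark at these genes differed without FBXW7. All 8 genes were called more often in WT than in KO, 56 of 64 gene and library combinations in WT against 29 of 64 in KO. Protein-coding genes as a whole followed the same direction, with 54.8% of combinations called in WT and 34.7% in KO, and 13094 genes called more often in WT against 1119 in KO. Within replicate A the 8 genes were called in 29 of 32 WT and 25 of 32 KO combinations, against 59.3% and 52.4% over all genes. Within replicate B these were 27 of 32 and 4 of 32, against 50.2% and 16.9% over all genes. FBXW11 and CUL1 had an unadjusted p under 0.05 for presence (exact permutation test, each p = 0.0286, adjusted p = 0.233), 2 of 8, against 14.7% of the 11064 genes tested. For peak number 5 of 8 did, against 25.6% of 13776 genes. No gene passed after adjustment in either comparison, 0% of those tested, with 1627 and 3520 genes at an unadjusted p under 0.05. The smallest p that the 4900 arrangements allow is 4.08e-04.

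**Figure D4:**
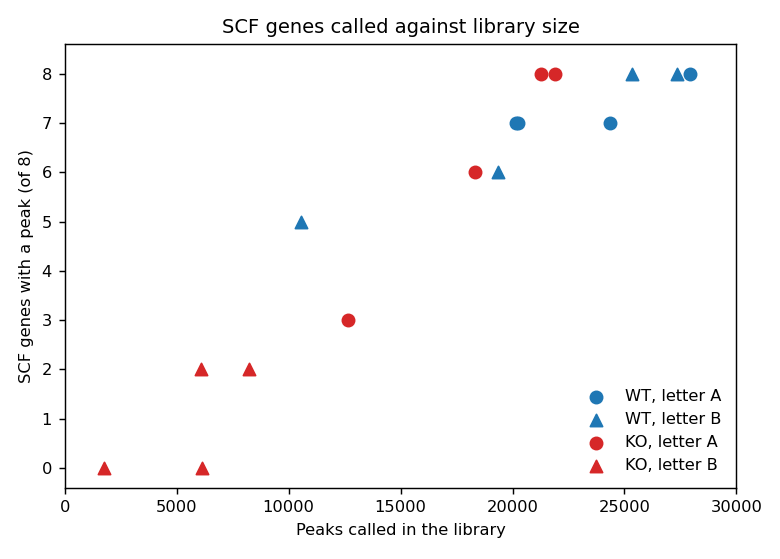
Number of the 8 SCF genes with a peak (vertical axis) against the number of peaks called in each of the 16 libraries (horizontal axis), WT in blue, KO in red, circles for replicate A and triangles for replicate B. Libraries with 20136 or more peaks held 7 or 8 called genes in both genotypes, and the 4 KO replicate B libraries, at 1752 to 8216 peaks, held 0 to 2.

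The number of called SCF genes followed library size in both genotypes. KO esiCT OXPT replicate A with 21875 peaks and KO esiHDAC4 UNT replicate A with 21290 peaks had all 8 genes called, as did WT esiCT UNT replicate A with 27927. WT esiCT OXPT replicate B, at 10562 peaks the smallest WT library, had 5, and KO esiCT UNT replicate A, with 12639 peaks, had 3. How far depth accounts for the difference between genotypes was not tested. Without replicate B only 1 of the 8 genes could still be tested for presence, and 0 of the 8 had an unadjusted p under 0.05 for number. The 70 arrangements then left allow no p under 0.0286. With number expressed per 1000 peaks of the library, FBXW11 (exact p = 0.00857, adjusted p = 0.168), CUL1 (p = 0.00571, adjusted p = 0.144) and USP28 (p = 0.0245, adjusted p = 0.245) had an unadjusted p under 0.05. In this setting 2166 of 13778 genes did. At the level of regions, 4 of the 14 member regions tested had an unadjusted p under 0.05, against 13.6% of 20090 regions, and 0% of regions passed after adjustment. The largest difference among them was at the BTRC intron, called in 8 libraries of WT and 2 of KO (exact p = 0.0102, adjusted p = 0.258).

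Oxaliplatin and HDAC4 silencing were compared over all 16 libraries in the same way. With OXPT the 8 genes were called in 43 of 64 combinations and without it in 42 of 64, against 43.7% and 45.7% over all genes. The genotypes moved opposite ways. In WT these were 25 of 32 with OXPT and 31 of 32 without, against 48.5% and 61% over all genes. In KO they were 18 of 32 and 11 of 32, against 38.8% and 30.5%. BTRC, SKP1 and RBX1 were called more often with OXPT, SKP2 and USP28 less often, and FBXW7, FBXW11 and CUL1 equally often. No member had an unadjusted p under 0.05 for presence or number, against 0.841% of genes for presence and 1.34% for number, and 0% of genes passed after adjustment. For OXPT and for esiHDAC4, labels were exchanged within letters but not within genotypes. The genotype difference in calls thus adds to the spread, and these tests cannot show that an effect is absent. Per 1000 peaks, BTRC had more peaks with OXPT (0.160 against 0.0570, exact p = 0.00163), which did not pass after adjustment (adjusted p = 0.592). In this setting 746 of 13778 genes had an unadjusted p under 0.05, 520 of them higher with OXPT. After esiHDAC4 the 8 genes were called in 44 of 64 combinations and after esiCT in 41 of 64, against 44.3% and 45.2% over all genes. FBXW7 was called in 6 esiHDAC4 and 4 esiCT libraries, and no member had an unadjusted p under 0.05, against 0.0994% of genes for presence and 0.211% for number.

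Fold was compared with limma on the log2 scale after subtraction of each library's median. No member had a peak in all 16 libraries, so none entered that fit. Over genes with a peak in at least 12 libraries, FBXW11, CUL1 and SKP1 could be fitted, with the libraries without a peak left out. For KO against WT their log2 differences were −0.16 (SE 0.161, adjusted p = 0.681), 0.19 (SE 0.161, adjusted p = 0.621) and −0.04 (SE 0.145, adjusted p = 0.935), against 0.258% of 5416 genes called. For these 3 genes the fold of the peaks found in KO thus could not be told from that in WT at this precision. BTRC and RBX1 could not be fitted, since no KO esiCT UNT library had a value.

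Within WT, where 5 members were called in all 8 libraries, the largest fold of each of the 5 was lower with OXPT than without it in all 4 pairs of the same esiRNA and replicate. Of the 4739 genes with a peak in all 8 WT libraries, 38.7% were lower in all 4 pairs. The fitted difference was below 0 for 92.4% of them, with a median of −0.25 on the log2 scale. At BTRC the largest peak was not always the same one: it lay at the start site in 3 of 4 UNT libraries and in none of the OXPT libraries. The intronic BTRC region, present in all 8, was also lower with OXPT in each pair, from between 3.89 and 4.78 in UNT to between 3.28 and 3.86 in OXPT. As deposited, the log2 differences were −0.50 for RBX1 (SE 0.164, limma, adjusted p = 0.0489), −0.48 for BTRC (SE 0.166, adjusted p = 0.0573), −0.38 for FBXW11 (SE 0.162, adjusted p = 0.101), −0.36 for CUL1 (SE 0.163, adjusted p = 0.121) and −0.17 for SKP1 (SE 0.161, adjusted p = 0.416). On this scale 4 of the 5 had an unadjusted p under 0.05, against 33.6% of genes, and 7.53% of genes passed after adjustment. Relative to the library median, RBX1 was at −0.24 (SE 0.147, adjusted p = 0.721), BTRC at −0.22 (SE 0.156, adjusted p = 0.767) and SKP1 at 0.09 (SE 0.152, adjusted p = 0.925), and 0% of genes passed. With the library median taken off, RBX1 was thus not called.

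The same pairs were read in KO, where a library without a peak was counted as lower than one with a peak. RBX1 was higher with OXPT in 3 of 4 KO pairs, 2 of them because the UNT library had no peak, and the measured pair differed by 0.04 on the log2 scale. BTRC was higher in 3 KO pairs, all without a peak in UNT, and lower in the 1 measured pair. FBXW11 was higher in 2 measured KO pairs, CUL1 was higher in 1 and lower in 1, and SKP1 was lower in 2 and higher in 1. Over the 4739 genes 47.8% of KO pairs were higher with OXPT, 34.4% were lower and 17.9% had no peak on either side. In WT, USP28 was lower in 4 of 4 pairs, 2 of them without a peak in OXPT, SKP2 was without a peak in OXPT in the 3 pairs that had one in UNT, and FBXW7 was lower in 2 and higher in 2. These 3 genes are not among the 4739, and such pairs were not counted over all genes. Calls over all genes were 61% in WT UNT and 48.5% in WT OXPT, with 30.7% in WT esiCT OXPT replicate B. Whether the response to OXPT differed between KO and WT could be fitted for FBXW11 (log2 difference 0.33, SE 0.278), CUL1 (0.11, SE 0.279) and SKP1 (−0.16, SE 0.271), none of which passed (limma, each adjusted p = 0.994).

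**Figure D5:**
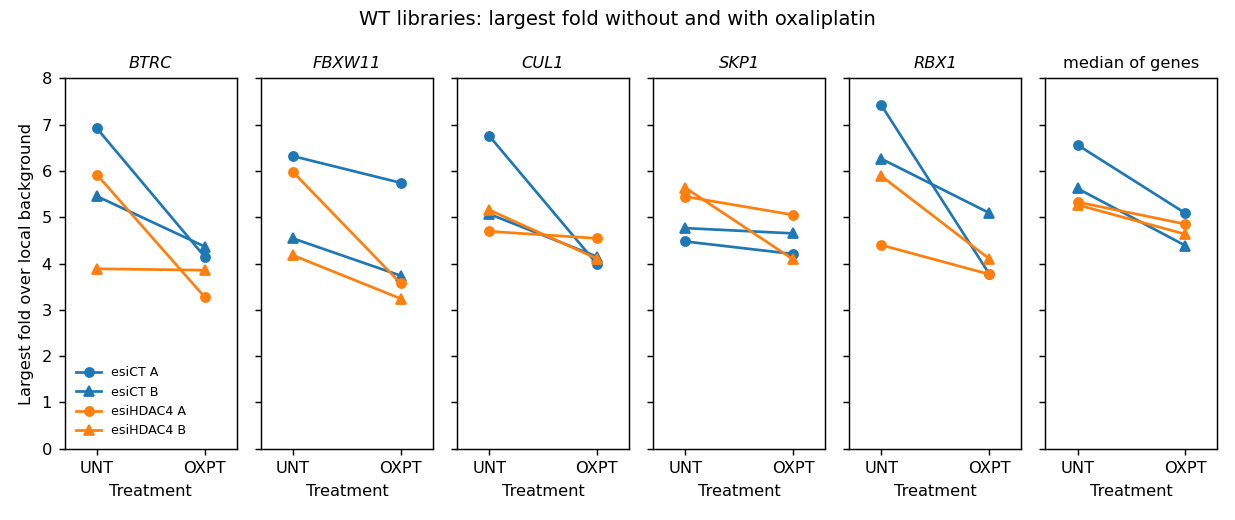
Largest fold over local background in the 8 WT libraries without (UNT) and with (OXPT) oxaliplatin for the 5 genes called in all of them and, at the right, the median over the 4739 genes called in all of them. Lines join libraries of the same esiRNA and replicate, and each of the 20 gene lines and 4 median lines is lower with OXPT.

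Genes of related function were read from fixed lists. Neddylation activates cullins by attaching NEDD8. Of 29 genes of the cullin-RING and neddylation machinery, which here includes factors that reverse this step, 28 were called more often in WT and 0 in KO. Of 24 tested, 4 had an unadjusted p under 0.05, all lower in KO, against the 14.7% of all genes. These were CAND1, the exchange factor of SCF receptors, COPS3, a subunit of the COP9 signalosome, and the cullin CUL4B, each called in 8 WT and 3 KO libraries (exact test, each p = 0.0143), and the ligase ARIH1 with 8 and 4 (p = 0.0286). Of 24 other F-box genes of the FBXW and FBXL families, 20 were called more often in WT and 1 in KO, and 1 of 18 tested had an unadjusted p under 0.05, FBXW2 with 7 WT and 2 KO libraries (exact p = 0.0306). The next were FBXL2 and FBXW10, each with 7 and 3, and FBXL14 with 6 and 2. The median gene tested was called in 3 fewer KO than WT libraries in both lists, as over all genes.

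Of 15 regulators and substrates of FBXW7, 13 were called more often in WT and 0 in KO, and 5 of 9 tested had an unadjusted p under 0.05, against the 14.7% of all genes. Of these the kinases AURKA and MTOR and the receptor NOTCH1 were called in 8 WT and 4 KO libraries (exact test, each p = 0.0286), and the transcription factor JUN in 7 and 2 (p = 0.0306). The median gene tested was called in 4 fewer KO libraries, against 3 fewer over all genes. This list was chosen with earlier results of these data known, and its genes called in more than 13 libraries were not tested. None of the genes of the 3 lists passed after adjustment. Outside the naming rule, HDAC4, the target of the esiRNA, was called in all 16 libraries and overlapped an SE in 10, SREBF1 was called in 16 with an SE in 8, and no cullin-RING gene overlapped an SE.

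The calls of FBXW7 over the 16 libraries were matched exactly by those of 203 other protein-coding genes, of which AAAS, ABCC4 and ABHD16A come first in the alphabet. The pattern shared by FBXW11 and CUL1, all WT libraries and all KO replicate A libraries, was that of 508 genes for each of them.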

How the data were processed

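Members and gene lists were chosen with earlier results of these data known. H3K27ac ChIP-seq peaks of 16 HCT-116 libraries (8 groups of 2) were analysed, and the 4 input samples were not used here. Per the submitters' processing notes and the study's methods, the authors trimmed reads (Trimmomatic 0.39), aligned them to hg38 (Bowtie2 2.4.4), removed duplicates (SAMtools 1.18) and called peaks per library (MACS2 2.2.7.1). The deposited peak lists give positions, an integer score, a fold over local background (a ratio), and −log10 p- and q-values at the summit. The SE lists of the authors give positions and a rank score. The study's methods kept only SEs that also carried H3K4me1, and the labels do not say whether the deposited lists were restricted in this way.

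Peaks were assigned to GENCODE 44 genes with 10 kb flanks in Python 3.11.15 and numpy 2.4.6. The 533 peaks on unplaced contigs were left out. Start sites were taken with 1 kb on either side. Read numbers behind each fold and p-value were solved to within 0.01, with the pseudocount of 1 read that MACS2 adds. These lists give no read totals, so background reads stand in for depth, and Poisson intervals cover counting error only.

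Presence was tested over genes called in 3 to 13 libraries, and number over genes called in at least 3, with exact two-sided permutation tests that exchange labels within replicate letters (the study's own model held the replicate, against batch effects), and Benjamini-Hochberg adjustment over all genes tested, at a threshold of 0.05. Largest folds were compared as log2 values, less the library median, with limma 3.58.1 (R 4.3.3), one mean per group and the letter as a covariate. The fits within WT held treatment, esiRNA and letter as additive terms instead. Fits without replicate A or B held no letter, and over both genotypes they held genotype, treatment, their interaction and esiRNA. Merged regions, the fits within WT and a fold minimum of 4 were chosen after seeing the data. Scripts were tested on simulated data. All 8 members were named, with at most 4 genes per list by smallest p for KO against WT, and the 3 genes nearest in pattern to FBXW7.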

Additional observations from a re-analysis of the deposited data

Results flagged for a closer look

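At BTRC and RBX1 the pairs of WT libraries and the calls in KO ran opposite ways with OXPT under esiCT, which is what singled them out. In WT the largest fold at BTRC was lower with OXPT in both replicate letters, by a mean log2 difference of −0.529, and at RBX1 by −0.635. In KO neither UNT library and both OXPT libraries had a peak at each gene, so no change in fold was measured there. KO esiCT UNT replicates A and B held 12639 and 6126 peaks, and KO esiCT OXPT replicates A and B held 21875 and 8216. In WT the largest BTRC peaks were different ones, 295 and 168 bp from the start site in UNT and 206064 and 204478 bp from it, past the end of the gene, in OXPT. The median largest fold of 4739 genes was also lower with OXPT in these WT libraries, at 5.09 against 6.56 in replicate A and 4.39 against 5.62 in replicate B. Of these genes 38.7% were lower in all 4 WT pairs of both esiRNAs, and 47.8% of their KO pairs were higher with OXPT. How many genes share the esiCT pattern of BTRC and RBX1 was not counted. The difference between the genotypes was not tested, since no KO UNT value exists under esiCT for either gene.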

How the results depend on the processing

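The peaks of these genes rested on few reads, and the KO replicate B libraries had the fewest peaks and the lowest background reads. How far depth bears on the calls was not tested. Of 318 alternatives over 51 results, 284 were labelled as unchanged. For counts of genes, regions or members this meant an equal or similar count, and many of these counts were 0 in both settings. For single genes and regions it meant no reversed direction, a difference of 0 included, and the same side of the threshold. The cause of the other changes was not tested. The replicate letter was held in the tests because the study's model treats it as a batch. In these folds, deviations of same-lettered libraries correlated above 0.1 in 15 of 28 pairs of groups (range −0.117 to 0.402, 484 genes), so the data alone do not show the pairing. With no replicate block, 1105 genes (presence) and 2903 (number) had an unadjusted p under 0.05 for KO against WT, and 0 passed after adjustment.

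For KO against WT, 2 of 8 members had an unadjusted p under 0.05 for presence, against 1627 of 11064 genes. This was 0 of 2 tested at a −log10 q of 10 (124 of 2908 genes) and 1 of 7 at a fold of 4 (1216 of 10247). It was 0 of 8 with no replicate block (1105 of 11064) and 1 of 8 for start sites alone (1373 of 9613). Without replicate A it was 2 of 5 (1161 of 6981), and without replicate B 0 of 1 (98 of 3198). For number, 5 of 8 members (3520 of 13776 genes) became 0 of 2 at a −log10 q of 10 (129 of 2929). It was 0 of 7 at a fold of 4 (1951 of 11542) and 3 of 8 per 1000 peaks (2166 of 13778). Without replicate A it was 3 of 6 (2003 of 10041), and without replicate B 0 of 8 (314 of 12861). With 1 letter left, the 70 arrangements allow no p under 0.0286. The counts without replicate A or B therefore cannot decide whether a difference holds. Member regions went from 4 to 2 of 14 with no replicate block, and all regions from 2740 to 2275 of 20090. Some directions turned, none of them called. FBXW7 number in KO was higher by 0.25 at a fold of 4, and SKP2 presence in KO ran from −0.125 to 0.25 when 1 replicate or library was left out. BTRC presence with OXPT was −0.375 at a −log10 q of 10 and −0.25 for start sites, and BTRC number −0.375 at a −log10 q of 10 and −0.25 at a fold of 4. The BTRC log2 fold with OXPT in WT was −0.56 without replicate B and 0.10 without replicate A, and SKP1 was −0.17 without centring, where RBX1 became called.

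Over all genes with a peak in all 16 libraries, 1 gene passed for fold in KO against WT (TMEM67, named after its values were seen). This was 5 without centring, 14 over genes in at least 12 libraries, 4 without KO esiHDAC4 UNT replicate B, and 11 to 49 without replicate A or B. For OXPT, 0 genes became 1 without KO esiHDAC4 UNT replicate B, and for esiHDAC4, 0 became 1 for start site peaks. Within WT, 0 became 357 for OXPT without centring, where the median moved by −0.25, and 0 became 0 to 1 for esiHDAC4 without replicate A or B.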
